A study of Rattus norvegicus with 9 samples.

Results

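Toll-like receptors 1 to 9 and their shared adaptor Myd88 were followed in the spinal cord of rats after contusion and after spinal cord stimulation. The members were the rows of the count table whose symbol was Tlr1, Tlr2, Tlr3, Tlr4, Tlr5, Tlr6, Tlr7, Tlr8, Tlr9 or Myd88, and each symbol stood on 1 row, so that 10 of the 30507 rows were used. All 10 passed the filter on low counts in every comparison.

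RNA sequencing had been run on the stretch of spinal cord around the T10 lesion level, not on the entire cord, of wild-type female Sprague-Dawley rats, 8 weeks old at the start and killed at 35 days post-injury (dpi), with 3 libraries in each of 3 groups. The Sham group had a laminectomy only, although the labels call these rats normal and untreated. The SCI group had a contusion at T10 and carried an electrode plug on the neck without an implanted electrode. The SCI + SCS group had the same contusion, an electrode in the epidural space and stimulation at 10 kHz and 0.12 mA for 2 h per day from 1 dpi. Between the SCI + SCS and SCI groups, implantation and current therefore cannot be told apart. The labels do not say whether a library pools rats, and p-values measure only the spread between these libraries.

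Toll-like receptors are innate immune receptors whose outer, leucine-rich part binds microbial molecules or molecules set free by damaged cells. Tlr1, Tlr2, Tlr4, Tlr5 and Tlr6 act mainly at the cell surface, whereas Tlr3, Tlr7, Tlr8 and Tlr9 sense nucleic acids inside endosomes. All of these receptors except Tlr3 pass their signal through the adaptor Myd88 to kinases of the Irak family and on to NF-κB, and in the central nervous system microglia and macrophages are known as their chief carriers.

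The files place Tlr6 (ENSRNOG00000002161) on chromosome 14 from 43362164 to 43375197 and Tlr1 (ENSRNOG00000038722) next to it from 43384932 to 43397125, both on the plus strand, in build mRatBN7.2. Tlr7 (ENSRNOG00000004249) and Tlr8 (ENSRNOG00000045992) also lie in tandem, on the plus strand of chromosome X from 27027425 to 27054754 and from 27091778 to 27116549. Tlr9 (ENSRNOG00000048161) and Myd88 (ENSRNOG00000013634) share chromosome 8, at 106864680 to 106868796 on the plus strand and at 119074437 to 119078508 on the minus strand. Tlr2 (ENSRNOG00000009822) lies on the minus strand of chromosome 2 from 169197419 to 169206630. The other members lie on plus strands, with Tlr4 (ENSRNOG00000010522) on chromosome 5 from 80145826 to 80159628, Tlr5 (ENSRNOG00000022067) on chromosome 13 from 94634801 to 94657738 and Tlr3 (ENSRNOG00000021726) on chromosome 16 from 46822039 to 46836545. All are protein-coding. Tlr1 and Tlr6 are close relatives in sequence, and how reads that match both were counted is not given in the sources used here.

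RefSeq promoters of all 10 members, from 250 bases before to 50 bases after the annotated start in build GRCr8, were searched on both strands for 3 short motifs. The core of PU.1 (the myeloid factor encoded by Spi1), GAGGAA, was in 6 of the 10 promoters (Tlr3, Tlr4, Tlr6, Tlr7, Tlr8 and Tlr9) and in 27.6% of all 33469 promoters of this length. The NF-κB motif was in the Tlr2 promoter and in 7.51% of all promoters. The core of the interferon-stimulated response element, GAAANNGAA, was in the promoters of Tlr8 and Myd88 and in 9.71% of all. No match of 1 motif overlapped a match of another, and the promoters of Tlr1 and Tlr5 held none of these letters. The promoters that held the NF-κB motif or the interferon element are shown because their genes are among those that rose after injury. They are written 5′ to 3′ along the gene, with all motif matches in capitals. Tlr2 is from chr2:171504508-171504807 on the minus strand, Tlr8 from chrX:30708476-30708775 on the plus strand and Myd88 from chr8:127956181-127956480 on the minus strand.
Tlr2: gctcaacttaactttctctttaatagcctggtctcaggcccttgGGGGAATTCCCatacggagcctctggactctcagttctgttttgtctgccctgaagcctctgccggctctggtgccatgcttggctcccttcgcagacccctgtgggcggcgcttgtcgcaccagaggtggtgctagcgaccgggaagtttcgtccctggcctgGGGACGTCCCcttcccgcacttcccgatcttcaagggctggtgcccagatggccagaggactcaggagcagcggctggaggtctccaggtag
Tlr8: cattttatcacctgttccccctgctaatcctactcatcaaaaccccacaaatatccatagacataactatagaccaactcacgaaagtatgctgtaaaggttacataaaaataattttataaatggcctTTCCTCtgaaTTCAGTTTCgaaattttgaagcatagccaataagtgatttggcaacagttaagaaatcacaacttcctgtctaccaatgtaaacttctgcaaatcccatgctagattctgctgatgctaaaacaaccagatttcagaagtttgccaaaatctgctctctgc
Myd88: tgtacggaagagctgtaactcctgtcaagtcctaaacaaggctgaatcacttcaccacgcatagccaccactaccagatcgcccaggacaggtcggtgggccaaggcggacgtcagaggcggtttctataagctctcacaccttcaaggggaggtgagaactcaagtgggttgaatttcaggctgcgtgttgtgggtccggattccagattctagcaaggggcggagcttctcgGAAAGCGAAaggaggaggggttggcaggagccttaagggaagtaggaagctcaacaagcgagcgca
In Tlr2 the capitals mark NF-κB matches at positions -206 to -196 and -42 to -33 from the start. In Tlr8 they mark the PU.1 core at -121 to -116 and the interferon element at -111 to -103, both on the reverse strand, and in Myd88 the interferon element at -16 to -8. A match is a description of the sequence and does not show that a factor binds there.

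The 9 libraries held 62844376 to 88358570 counts each. At this depth a floor of 3 counts in a library equals 0.034 to 0.0477 CPM, the count relative to the library total after TMM normalization over the 9 libraries. In SCI replicates 1 and 3 a list of 17 skeletal muscle genes summed to 4520 and 1479 CPM, against 50.9 to 155 CPM in the other 7 libraries. A list of 8 adipocyte genes summed to 122 to 131 CPM in SCI, 47.8 to 65.8 CPM in SCI + SCS and 12.5 to 24.9 CPM in Sham. With the muscle and adipocyte genes removed before normalization, the same numbers of members passed the test in the comparisons below (7, 0 and 5). Only the listed genes were removed, so reads of the members from such tissue stayed in, and their part was not tested. Within the Sham group, replicate 1 was the lowest and replicate 3 the highest for all 10 members, an order held by 27.6% of all genes tested. SCI replicate 1 was the lowest SCI library for 9 of the 10 members, which held for 36.2% of all genes.

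SCI libraries were first set against Sham libraries, which addressed what contusion left behind at 35 dpi. A member was called at a Benjamini-Hochberg adjusted p under 0.05 in edgeR's quasi-likelihood test over 17822 genes. Of the 10 members 7 rose, namely Tlr1, Tlr2, Tlr4, Tlr6, Tlr7, Tlr8 and Myd88, all with |log2FC|>1, and 0 fell. In bulk tissue such a rise can come from more cells of a type or from more RNA per cell, which cannot be told apart. Over all genes tested, 24.3% were called higher and 25% lower. The median log2FC was 1.38 over the members and 0.015 over all genes. In 8 members every SCI library lay above every Sham library, as in 32.6% of all genes.

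**Figure D1:**
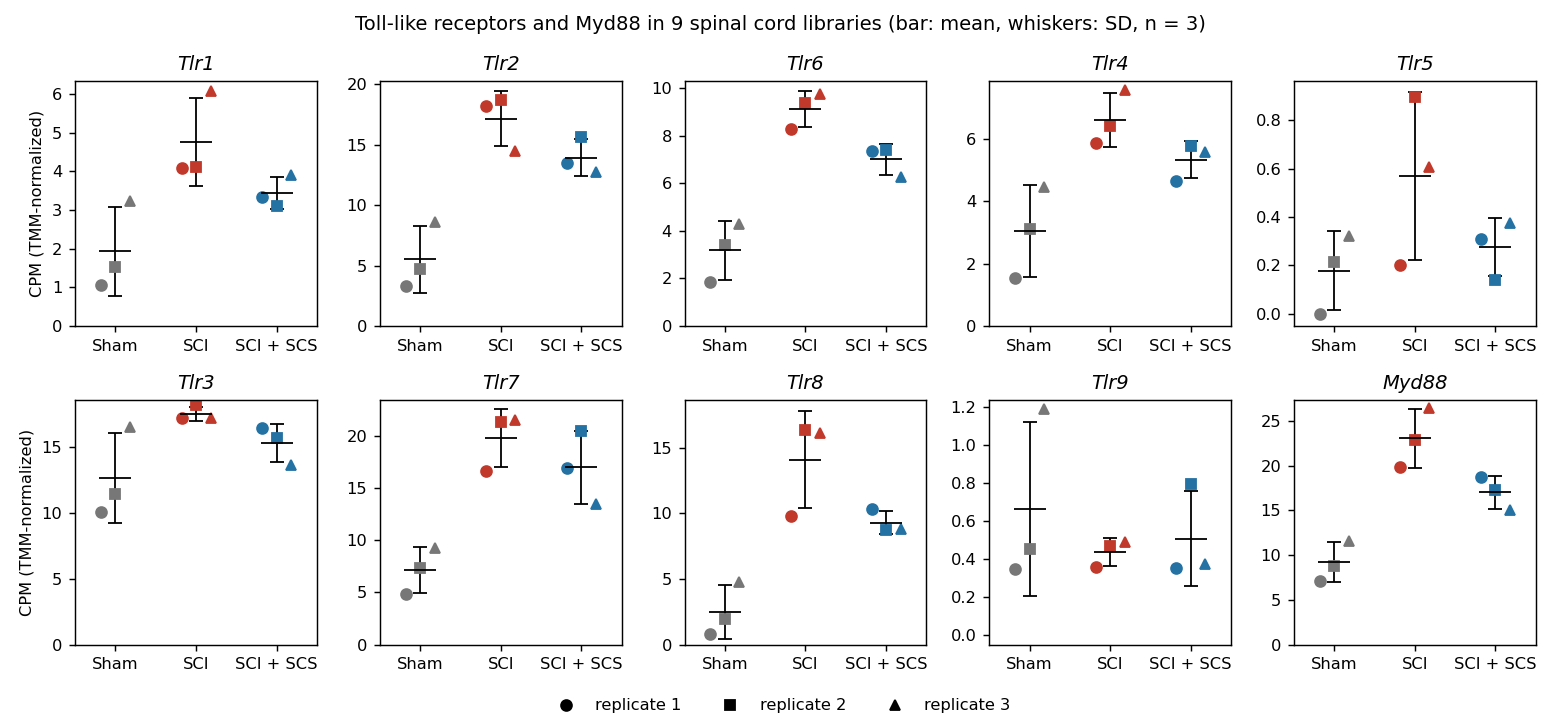
Level of each member in CPM (vertical axis, 1 panel per gene, each with its own scale) in the 9 libraries, with circles, squares and triangles for replicates 1, 2 and 3, bars for the group mean and whiskers for the SD (n = 3). Sham libraries lie below all SCI libraries for 8 of the 10 genes, and the SCI + SCS libraries lie mostly between the 2 other groups.

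Among the surface receptors, Tlr2 senses lipoproteins as a pair with Tlr1 or Tlr6. Tlr2 gave 3.27, 4.69 and 8.57 CPM in the Sham libraries, 18.2, 18.7 and 14.5 CPM in the SCI libraries and 13.5, 15.6 and 12.7 CPM in the SCI + SCS libraries. Both injured groups lay above the highest Sham library. Tlr2 rose 3.07-fold in the SCI group (log2FC 1.62, SE 0.35, edgeR adjusted p = 0.0103).

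Its partner Tlr6 gave 1.86, 3.41 and 4.29 CPM in Sham, 8.29, 9.35 and 9.76 CPM in SCI and 7.35, 7.38 and 6.27 CPM in SCI + SCS. These 3 groups did not overlap, and the SCI group was the highest. Tlr6 rose 2.83-fold (log2FC 1.5, SE 0.31, edgeR adjusted p = 0.00842). The other partner, Tlr1, gave 1.05, 1.52 and 3.24 CPM in Sham, 4.10, 4.10 and 6.07 CPM in SCI and 3.33, 3.11 and 3.90 CPM in SCI + SCS. The Sham and SCI libraries were apart, while Sham replicate 3 reached the range of the SCI + SCS libraries. Tlr1 rose 2.42-fold with a wide error (log2FC 1.28, SE 0.44, edgeR adjusted p = 0.0485).

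Tlr4, the receptor for lipopolysaccharide, gave 1.53, 3.11 and 4.47 CPM in Sham, 5.86, 6.43 and 7.56 CPM in SCI and 4.66, 5.77 and 5.58 CPM in SCI + SCS. Its groups also did not overlap, but SCI + SCS replicate 1 was only just above Sham replicate 3. Tlr4 rose 2.15-fold (log2FC 1.10, SE 0.38, edgeR adjusted p = 0.0485). Tlr5, the receptor for flagellin, had few reads, with 0, 19 and 28 counts in Sham, 16, 63 and 42 in SCI and 22, 10 and 24 in SCI + SCS. All groups overlapped, and a log2FC of 1.61 with a 95% interval from -0.89 to 4.11 was not called (edgeR adjusted p = 0.238).

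Among the endosomal receptors, Tlr8 showed the largest log2FC of the 10 members. Tlr8, known in humans as a sensor of single-stranded RNA, gave 0.786, 1.95 and 4.77 CPM in Sham, 9.82, 16.4 and 16.1 CPM in SCI and 10.3, 8.70 and 8.84 CPM in SCI + SCS. The Sham libraries spanned 6.07-fold among themselves and still lay below every injured library. Tlr8 rose 5.55-fold (log2FC 2.47, SE 0.62, edgeR adjusted p = 0.0172).

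Its neighbour on chromosome X, Tlr7, which senses single-stranded RNA, gave 4.86, 7.29 and 9.22 CPM in Sham, 16.7, 21.3 and 21.5 CPM in SCI and 17.0, 20.5 and 13.5 CPM in SCI + SCS. The injured groups overlapped each other and not the Sham group. Tlr7 rose 2.75-fold (log2FC 1.46, SE 0.25, edgeR adjusted p = 0.00461).

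Tlr3, a sensor of double-stranded RNA that signals without Myd88, gave 10.03, 11.4 and 16.5 CPM in Sham, 17.2, 18.2 and 17.2 CPM in SCI and 16.5, 15.7 and 13.7 CPM in SCI + SCS. The Sham and SCI libraries did not overlap, but the log2FC of 0.45 (SE 0.19) was not called (edgeR adjusted p = 0.0949). Without Sham replicate 3 it was called, at a log2FC of 0.68 (edgeR adjusted p = 0.0104). Tlr9, the sensor of unmethylated CpG DNA, had 22, 40 and 104 counts in Sham, 28, 33 and 34 in SCI and 25, 56 and 24 in SCI + SCS. Its groups overlapped, and a log2FC of -0.62 with a 95% interval from -1.89 to 0.65 was not called (edgeR adjusted p = 0.364). That sign rested on Sham replicate 3, without which the log2FC was 0.10.

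Myd88, the adaptor, gave 7.15, 8.83 and 11.6 CPM in Sham, 19.9, 22.9 and 26.4 CPM in SCI and 18.7, 17.3 and 15.0 CPM in SCI + SCS. Its groups did not overlap, with SCI the highest and Sham the lowest. Myd88 rose 2.47-fold (log2FC 1.31, SE 0.21) and had the smallest adjusted p of the members (0.00353 in edgeR).

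The calls depended on single libraries for part of the members. Tlr2, Tlr6, Tlr7 and Myd88 passed the test in all 15 alternatives that gave them an adjusted p. Without Sham replicate 2, SCI replicate 2 or SCI replicate 3, these 4 were the members called, against 8 without Sham replicate 3. Tlr1 passed in 9, Tlr4 in 10 and Tlr8 in 12 of the 15 alternatives. How many of all genes were called with a library left out is not given here, so these counts lack that reference.

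**Figure D2:**
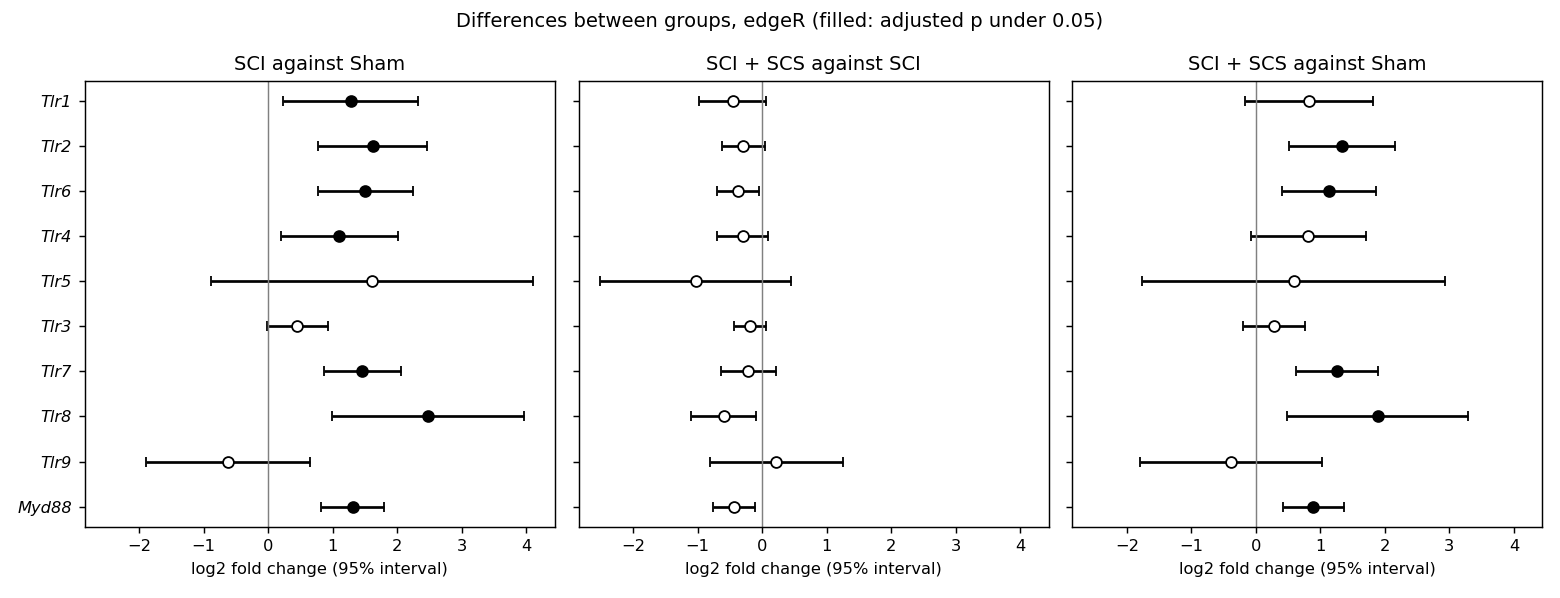
Log2 fold change of each member (horizontal axis, same scale in all panels) in the 3 comparisons, with the 95% interval of edgeR's quasi-likelihood test as whiskers and filled points at an adjusted p under 0.05. There are 7 filled points for SCI against Sham, 0 for SCI + SCS against SCI and 5 for SCI + SCS against Sham.

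SCI + SCS libraries were then set against SCI libraries, which addressed what implantation and stimulation together changed in injured cord. No member was called by edgeR's quasi-likelihood test, with 0 of 10 at an adjusted p under 0.05, and of all 17663 genes 0.00566% were called in either direction. The log2FC was below 0 for 9 of the 10 members, with a median of -0.34 over the members and -0.0055 over all genes. At an unadjusted p under 0.05, 3 members were lower (Tlr6, Tlr8 and Myd88), as were 10.9% of all genes. The SCI + SCS libraries lay below all SCI libraries in 5 members, namely Tlr1, Tlr3, Tlr4, Tlr6 and Myd88, and in 13.9% of all genes.

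Myd88 differed by a log2FC of -0.43 between the SCI + SCS and SCI groups, with a 95% interval from -0.76 to -0.10 (edgeR adjusted p = 0.13). DESeq2 on the same libraries called Myd88 lower at an adjusted p of 0.0495, as it did 6.41% of all genes, and over all alternatives the adjusted p of Myd88 lay between 0.0495 and 0.36. The interval of Tlr8 ran from -1.10 to -0.09 around a log2FC of -0.59 (edgeR adjusted p = 0.155), and that of Tlr6 from -0.71 to -0.04 around -0.38 (edgeR adjusted p = 0.166). For Tlr2 the interval was -0.62 to 0.04, and for Tlr7 it was -0.64 to 0.21. The intervals of Tlr2 and Tlr7 hold 0, which does not show that the groups were alike. For Tlr9, the member with a log2FC above 0 (0.22), the interval ran from -0.80 to 1.25.

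Set against Sham, stimulated rats still had 5 members higher, namely Tlr2, Tlr6, Tlr7, Tlr8 and Myd88, and 0 lower, in edgeR's test over 17640 genes. Of all genes 16.2% were called higher and 16.2% lower. Tlr8 was 3.70-fold higher (log2FC 1.89, SE 0.59, edgeR adjusted p = 0.0498) and Tlr2 was 2.53-fold higher (log2FC 1.34, SE 0.34, edgeR adjusted p = 0.0292). Tlr7 was 2.39-fold higher, Tlr6 2.197-fold and Myd88 1.85-fold, with edgeR adjusted p-values of 0.017, 0.0332 and 0.019. Tlr1 (log2FC 0.83), Tlr4 (0.81), Tlr5 (0.58), Tlr3 (0.27) and Tlr9 (-0.39) were not called.

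In 6 members the SCI + SCS libraries lay above all Sham libraries, as in 27.2% of all genes. The median log2FC against Sham was 0.86 over the members and 0.0077 over all genes. This comparison shares its Sham libraries with the first and its SCI + SCS libraries with the second, so their values are not independent. Its count of called members also moved with single libraries, with 0 members called without Sham replicate 2, without SCI + SCS replicate 1 or without SCI + SCS replicate 2, 2 (Tlr7 and Myd88) without SCI + SCS replicate 3 and 8 without Sham replicate 3. Calls over all genes in these smaller fits are not given here, so such changes are no result about the members.

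Levels of different genes were compared on the FPKM scale, which divides counts by gene length. Myd88 was the highest member in every group, at 3.39 ± 0.86 FPKM in Sham, 8.23 ± 1.59 in SCI and 6.45 ± 0.70 in SCI + SCS (SD, n = 3). Tlr3 came next and Tlr7 after it in all groups, at 2.37 ± 0.65 and 1.02 ± 0.32 FPKM in Sham and 3.27 ± 0.35 and 2.87 ± 0.62 FPKM in SCI. The 2 lay further apart than their SD in Sham and not in SCI. Tlr8 was 8th of 10 in Sham, at 0.382 ± 0.313 FPKM, 4th in SCI, at 2.18 ± 0.72 FPKM, and 5th in SCI + SCS, at 1.45 ± 0.14 FPKM. Tlr5 was the lowest in every group, at most 0.0717 FPKM on average, and Tlr9 was the second lowest. From Tlr7 down to Tlr9 in the Sham order (Tlr7, Tlr4, Tlr2, Tlr6, Tlr1, Tlr8, Tlr9), neighbouring genes differed by less than the larger SD of the pair. In SCI the order was Myd88, Tlr3, Tlr7, Tlr8, Tlr2, Tlr6, Tlr4, Tlr1, Tlr9 and Tlr5, and the steps larger than that SD were those from Myd88 to Tlr3, Tlr2 to Tlr6, Tlr4 to Tlr1 and Tlr1 to Tlr9.

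Summed over Tlr1 to Tlr9, the FPKM were 3.98, 5.98 and 9.07 in the Sham libraries, 11.95, 16.4 and 16.3 in the SCI libraries and 12.4, 12.96 and 11.2 in the SCI + SCS libraries. Tlr3 made up 34.1% to 46.0% of this sum in Sham, 20.7% to 24.1% in SCI and 23.2% to 25.6% in SCI + SCS. The share of Tlr8 was 2.90% to 8.02% in Sham, 11.3% to 16.0% in SCI and 10.5% to 13.05% in SCI + SCS, so that its ranges in the injured groups lay above Sham. The share of Tlr7 was 14.6% to 17.9% in Sham, 17.9% to 19.8% in SCI and 17.7% to 23.2% in SCI + SCS. The ratio of Tlr7 to Tlr8 was 5.88, 3.53 and 1.82 in Sham, 1.59, 1.23 and 1.26 in SCI and 1.55, 2.22 and 1.44 in SCI + SCS. Shares and ratios are descriptions, and no test of them was run.

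**Figure D3:**
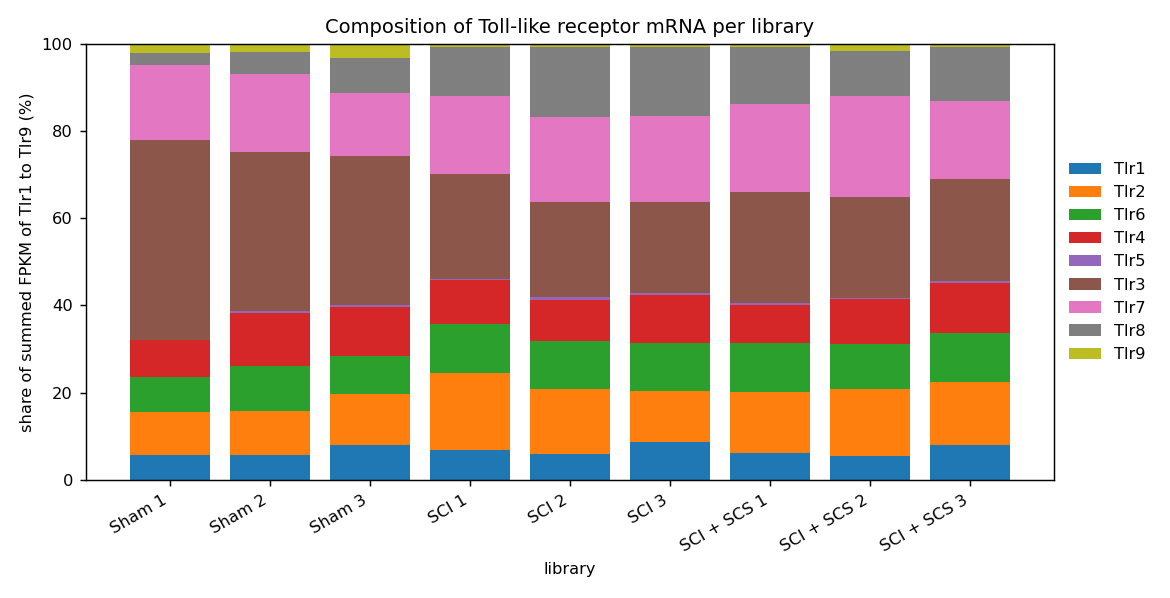
Share of each receptor (vertical axis, percent) in the summed FPKM of Tlr1 to Tlr9 in each of the 9 libraries (horizontal axis). The Tlr3 segment is 34.1% to 46.0% in Sham and 20.7% to 25.6% in the injured libraries, while the Tlr8 segment is at most 8.02% in Sham and at least 10.5% in the injured libraries.

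Over the 9 libraries, log2 CPM of the 8 members other than Tlr5 and Tlr9 were correlated with each other at Pearson's r between 0.87 and 0.986 (28 pairs). Around the group means the same pairs had r between 0.64 and 0.941. With Tlr9, r lay between -0.037 and 0.298 over the libraries and between 0.396 and 0.858 around the group means. These libraries share their group differences and the order of the Sham libraries, and the values are descriptions.

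The genes most like a member in log2 CPM over the 9 libraries were taken from symbols on 1 row with a mean of at least 1 CPM. For Tlr2 these were Ly86, Sting1 and Tasl (r from 0.995 to 0.996). For Tlr8 they were Mfsd1, Stom and Mylip (r from 0.993 to 0.995), for Tlr7 Cyfip1, Sh2b3 and Prkd3 (0.989 to 0.992) and for Tlr6 Cdc42se1, Mxd4 and Trim56 (0.994 to 0.999). Those of Myd88 were Hdac1, Kdelr1 and P4hb, each at r = 0.997. The likeness was lower for Tlr9, with Axin2, Reep3 and Kif26a (0.930 to 0.944), and for Tlr5, with Bmp5, Stard8 and H6pd (0.950 to 0.957). Tlr1 was most like Coch, Psme1-ps1 and Plagl2 (0.970 to 0.979), Tlr3 Mfsd13a, Slc25a35 and Mks1 (0.969 to 0.985) and Tlr4 Zfp36l1, Anxa4 and Mfsd1 (0.980 to 0.987).

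The other genes of the pathway were held in 9 lists with 107 genes, of which 96 were tested in SCI against Sham. Of these 63 rose, 12 fell and 21 were not called by edgeR, and the median log2FC was 1.27. Over all genes tested, 24.3% were called higher and 25% lower. The counts of each pathway and marker list in SCI against Sham, below, stand beside these shares.

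Of the remaining receptors, Tlr13, a sensor of bacterial ribosomal RNA in rodents, rose 6.46-fold (log2FC 2.69, SE 0.26, edgeR adjusted p = 0.00129). It gave 2.99, 4.601 and 5.93 CPM in Sham, 32.3, 29.6 and 26.6 CPM in SCI and 18.5, 24.0 and 18.4 CPM in SCI + SCS. The Sham libraries lay far below both injured groups, and all SCI + SCS libraries lay below the SCI libraries. Tlr11 and Tlr12 were not called (log2FC 2.45 and 1.73), and Tlr10 did not pass the filter on low counts.

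Of 10 co-receptors and ligand carriers tested, 8 rose, 0 fell and 2 (Hmgb1 and Trem1) were not called, with a median log2FC of 2.22. Cd14, which hands lipopolysaccharide to Tlr4, rose 6.11-fold, and the beta-glucan receptor Clec7a rose 28.8-fold. Lbp, the lipopolysaccharide-binding protein, rose 13.2-fold. S100a8 and S100a9, which encode the subunits of an alarmin sensed by Tlr4, rose 6.46-fold and 5.98-fold.

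Of 12 chaperones and endosomal proteases tested, 9 rose and 1 (Slc15a4) fell, with a median log2FC of 1.40. Unc93b1, which escorts the endosomal receptors out of the endoplasmic reticulum, gave 13.3, 17.2 and 25.9 CPM in Sham and 112, 112 and 111 CPM in SCI and rose 5.87-fold. Ctsk, a cathepsin, rose 11.7-fold, and Slc15a3, a peptide transporter of endosomes, rose 5.78-fold. Tasl, an adaptor of Slc15a4 on the path from Tlr7 to interferon, rose 4.62-fold.

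Of the 4 other adaptors tested, Tirap, which bridges Tlr2 and Tlr4 to Myd88, rose 1.47-fold and Pik3ap1 rose 2.60-fold, whereas Sarm1 and Ticam2 fell to 0.374 and 0.774 of the Sham level. Of 18 kinases and ubiquitin ligases tested, 5 rose and 6 fell, with a median log2FC of -0.10. These shares lie near the 24.3% higher and 25% lower over all genes and are no result about the list. Irak4, the first kinase at the receptor complex, rose 2.37-fold and Ikbke rose 5.16-fold, whereas Tab3 and Peli2 fell to 0.192 and 0.396 of the Sham level.

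Of 11 transcription factors tested, 10 rose and 0 fell, with a median log2FC of 1.55. Spi1, which encodes PU.1, rose 7.79-fold, the interferon regulatory factors Irf7 and Irf8 rose 4.602-fold and 3.70-fold, and the NF-κB subunits Nfkb2 and Relb rose 3.41-fold and 3.27-fold. Of 13 negative regulators tested 10 rose and 2 (Tollip and Cyld) fell, with a median log2FC of 0.99. Atf3, a repressor of inflammatory genes, rose 9.91-fold, and Socs3, an inhibitor of cytokine signalling, rose 6.12-fold. Of 10 genes of the interleukin 1 family and its Myd88-dependent receptors, 7 rose and 1 fell, with a median log2FC of 1.17. Il18rap, a chain of the interleukin 18 receptor, rose 4.91-fold, and Il1rap, the shared accessory chain, fell to 0.353 of the Sham level. Of 15 induced targets tested, 11 rose and 0 fell, with a median log2FC of 2.14. The chemokines Ccl3 and Ccl4 rose 12.04-fold and 11.8-fold, Cxcl1 rose 8.21-fold, Ccl2 rose 6.94-fold and Cxcl10 rose 6.59-fold.

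**Figure D4:**
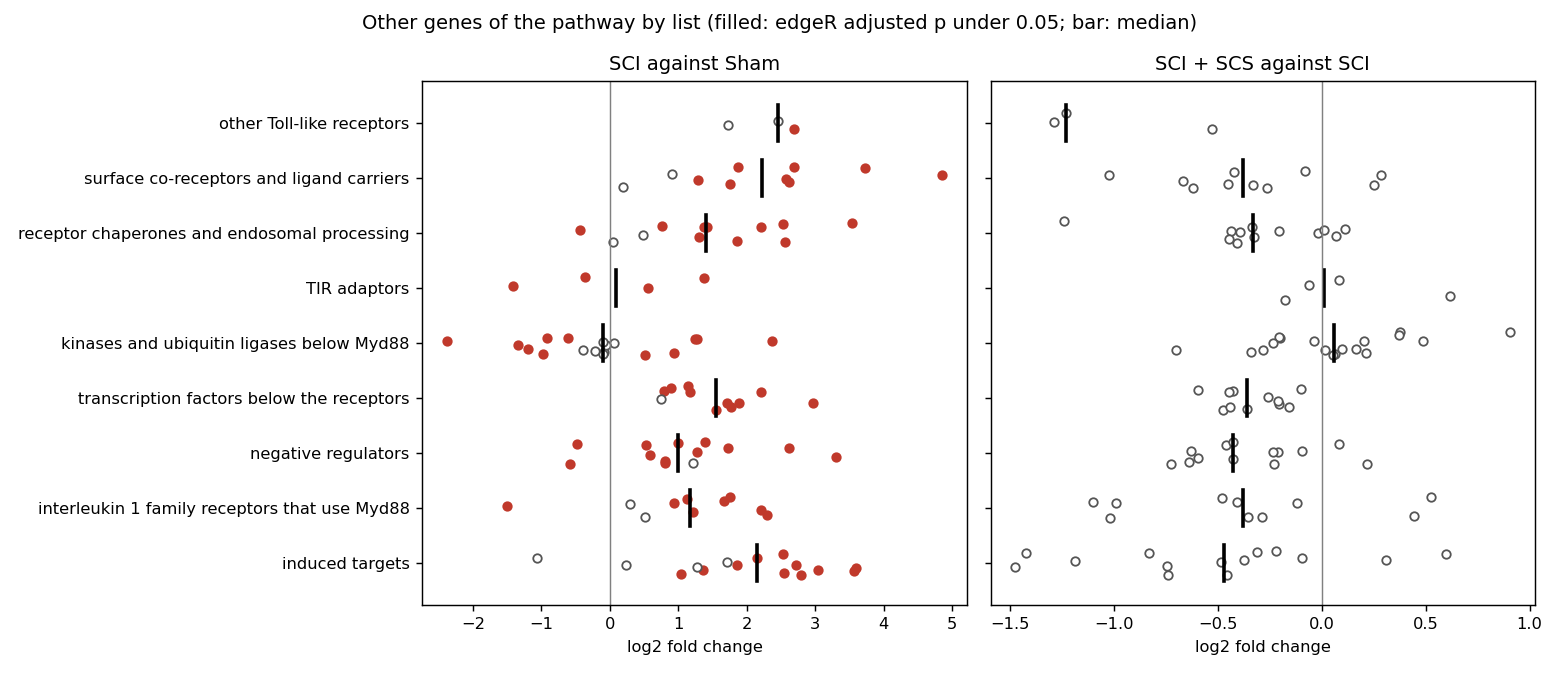
Log2 fold change (horizontal axis, a different scale in each panel) of the other genes of the pathway in 9 lists, with filled points at an edgeR adjusted p under 0.05 and a bar at the median of each list. In SCI against Sham 63 points are filled to the right of 0 and 12 to the left, and in SCI + SCS against SCI none is filled.

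In SCI + SCS against SCI, edgeR called 0 of the 95 pathway genes tested. Of these 71 had a log2FC below 0, as had 8957 of all 17663 genes, and the median was -0.29. At an unadjusted p under 0.05, 31 were lower and 3 higher, and DESeq2 called 21 lower and 2 higher. Of all genes, 10.9% were lower at that unadjusted p and DESeq2 called 6.41% lower. The share of all genes that were higher at that unadjusted p was not counted. DESeq2 calls over all genes are given by direction in the last section. Unc93b1 gave 87.8, 85.0 and 79.0 CPM in the SCI + SCS libraries, below all SCI libraries (log2FC -0.41, edgeR adjusted p = 0.0774). The log2FC was -0.62 for Cd14 and -0.67 for Ly96, which encodes the lipopolysaccharide-binding partner of Tlr4, and -1.24 for Ctsk. Sarm1 went the other way, at a log2FC of 0.62 (edgeR adjusted p = 0.123). In SCI + SCS against Sham, edgeR called 45 of the 95 pathway genes tested higher and 8 lower. Of all genes it called 16.2% higher and 16.2% lower there.

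Summed markers of macrophages and monocytes also differed between the groups. Summed over 10 macrophage and monocyte markers, the level was 74.9 to 337 CPM in Sham, 2082 to 3297 CPM in SCI and 1535 to 1588 CPM in SCI + SCS. Of 9 tested, edgeR called 7 higher in SCI. In SCI + SCS against SCI all 9 had a log2FC below 0, of which edgeR called 0 and DESeq2 called 6 lower (6.41% of all genes). At an unadjusted p under 0.05 in edgeR, 7 were lower (10.9% of all genes). Marco was at 0 in the SCI libraries. Cd68, a lysosomal protein of phagocytes, was at 4.83 CPM on average in Sham, 275 CPM in SCI and 173 CPM in SCI + SCS.

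Summed over 10 microglia markers the level was 396 to 583 CPM in Sham, 899 to 1207 CPM in SCI and 898 to 1113 CPM in SCI + SCS. Of 9 tested 4 rose in SCI, among them Csf1r and Aif1. The homeostatic markers P2ry12 and Tmem119 were not called, with log2FC of 0.16 and 0.41, and Siglech was at 0 in the Sham and SCI + SCS libraries. The median log2FC over the microglia list in SCI + SCS against SCI was 0.01, where that of the macrophage list was -0.88.

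Summed neutrophil markers were 4.03 to 9.38 CPM in Sham, 18.7 to 38.0 CPM in SCI and 21.2 to 42.5 CPM in SCI + SCS, and 5 of 8 tested rose in SCI. Summed B cell markers stayed at or below 4.61 CPM in all libraries, and 2 of 4 tested rose in SCI. Summed dendritic cell markers were 28.0 to 35.9 CPM in Sham, 48.4 to 61.8 CPM in SCI and 33.4 to 41.3 CPM in SCI + SCS. Of 7 tested, edgeR called 5 higher and 1 lower in SCI. The 9 markers of T and NK cells summed to 22.03 to 58.3 CPM in Sham, 140 to 200 CPM in SCI and 114 to 151 CPM in SCI + SCS, and edgeR called 6 higher and 0 lower in SCI. All 10 neuron markers fell in SCI, with a sum of 4245 to 9545 CPM in Sham, 525 to 1903 CPM in SCI and 1788 to 3162 CPM in SCI + SCS. Of the 10 neuron markers edgeR called 0 and DESeq2 called 5 higher in SCI + SCS against SCI. Oligodendrocyte markers summed to 59059 to 82746 CPM in Sham, 17311 to 32952 CPM in SCI and 30554 to 36321 CPM in SCI + SCS. Of these 8 markers, edgeR called 7 lower in SCI against Sham and 0 in SCI + SCS against SCI, where DESeq2 called 5 higher. DESeq2 calls over all genes in this comparison are given by direction in the last section, as a reference for these neuron and oligodendrocyte counts. In Sham replicates 1, 2 and 3 the macrophage sum was 74.9, 191 and 337 CPM and the neuron sum was 9545, 5828 and 4245 CPM, while the members were lowest in replicate 1 and highest in replicate 3. The microglia sum (396, 457 and 583 CPM) rose in the same order. So did the neutrophil, T and NK cell, dendritic cell, astrocyte, oligodendrocyte, adipocyte, Schwann cell and red blood cell sums. The B cell, endothelial cell and skeletal muscle sums did not. The part of these cell types in the differences of the members was not tested.

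**Figure D5:**
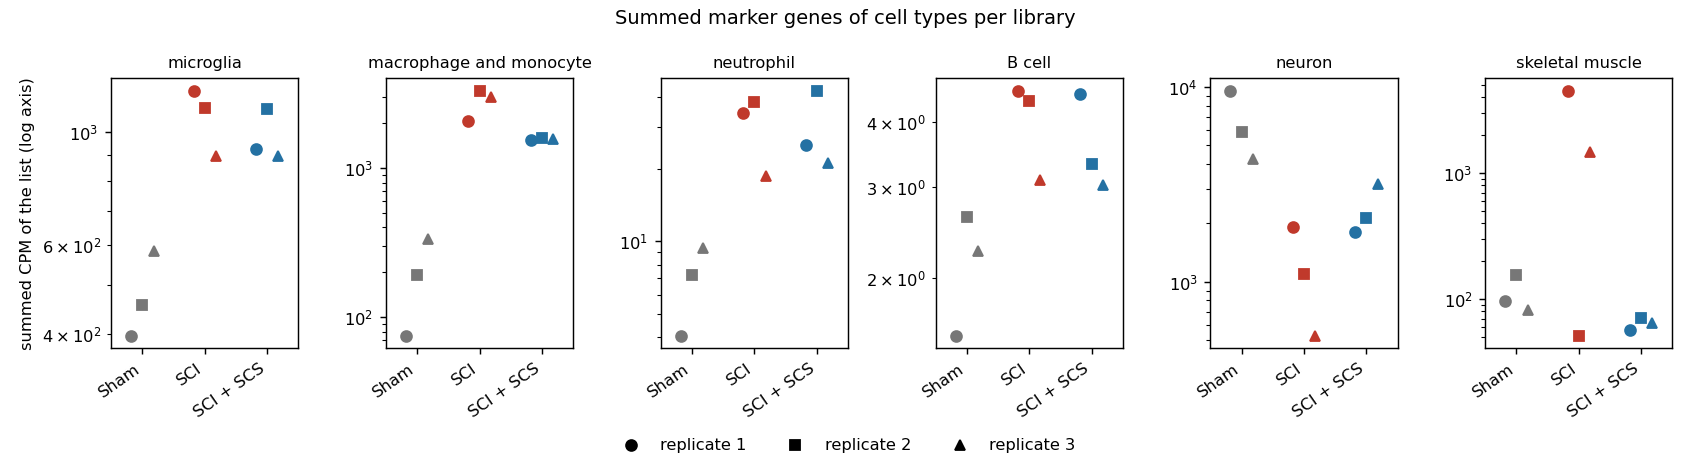
Summed CPM (vertical log axis) of marker genes of 6 cell types in the 9 libraries, with circles, squares and triangles for replicates 1, 2 and 3. Macrophage markers reach 337 CPM at most in Sham and 1535 CPM at least in the injured libraries, and muscle genes stand at 4520 and 1479 CPM in SCI replicates 1 and 3.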

How the data were processed

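The authors enriched mRNA from spinal cord with oligo(dT) beads and sequenced it from both ends. The submitters' processing notes name fastp 0.23.2, HISAT2 2.2.1 and build mRatBN7.2, and the counting program is not given in the sources used here. The authors deposited raw counts per gene and library, and FPKM, the counts scaled by gene length and library total. The 9 libraries were grouped by their titles in the labels.

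From the counts, comparisons were fitted on the 6 libraries concerned by the quasi-likelihood F test of edgeR 4.0.16 under R 4.3.3, with TMM, filterByExpr and Benjamini-Hochberg adjustment over all genes tested. The SE is |log2FC| over the root of F. DESeq2 1.42.0, limma 3.58.1 on log2(FPKM + 1) and log2(FPKM + 0.1), other filters, size factors, all libraries in 1 fit, the replicate block and leaving out each library were alternatives. The paper's methods name DESeq2.

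Totals lay between 62844376 and 88358570 counts. Floors cover counting error only, since reads copied by PCR need not stem from separate molecules, while intervals of a log2FC rest on the spread between libraries. Same-numbered libraries did not deviate together on average over all genes, which cannot exclude a shared batch. No pairing was fitted in the main test. The members and the gene and marker lists were chosen with earlier results of these data known. All 10 members are named, with up to 5 called genes of each list with the largest |log2FC| in SCI against Sham, up to 3 with the smallest p in SCI + SCS against SCI and the 3 genes most like each member. Hmgb1, Trem1, the listed markers and genes not called were named to account for their list. No row of the counts bore the symbol Cd36, Itgam, Ticam1 or Tab1, so these listed genes were not analysed here.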

Additional observations from a re-analysis of the deposited data

How the results depend on the processing

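Over 442 alternative values for single members, 394 kept the direction and the side of the threshold, 39 lost and 6 gained a call, and 3 changed sign. The 3 were all of Tlr9, at a log2FC of 0.10 in SCI against Sham and 0.34 in SCI + SCS against Sham without Sham replicate 3, and of -0.26 in SCI + SCS against SCI without SCI + SCS replicate 2. When a library was left out, the log2FC of Tlr9 ran from -0.92 to 0.10 in SCI against Sham, from -0.26 to 0.43 in SCI + SCS against SCI and from -0.87 to 0.34 in SCI + SCS against Sham. Members called in SCI against Sham numbered 7, and between 5 and 8 under other tools, filters, units and scalings, with 4 to 8 when a library was left out. In SCI + SCS against SCI the count was 0 in edgeR, 1 in DESeq2 (Myd88) and 3 at an unadjusted p under 0.05, and 0 whichever library was left out. In SCI + SCS against Sham the count was 5, and 0 to 8 when a library was left out. Under the replicate block it was 0, against 7 in SCI against Sham and 0 in SCI + SCS against SCI. Deviations of libraries with the same number correlated at 0.083 on average over all genes in SCI against Sham. In SCI + SCS against SCI and SCI + SCS against Sham these averages were -0.09 and -0.168. Such averages cannot exclude that same-numbered libraries shared a batch. The cause of these changes was not tested, and calls over all genes with a library left out are not given here.

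Over all genes, DESeq2 called 2550 in SCI + SCS against SCI where edgeR called 1, limma called 31 on log2(FPKM + 1) and 19 on log2(FPKM + 0.1), and the block left 1259 of 5710 in SCI + SCS against Sham. Of the 2550 genes, among 17356 with a DESeq2 adjusted p, 1113 were lower in the SCI + SCS group and all others were higher. Alternatives for the pathway lists, added after seeing the data, left 219 of 243 counts within 1.5 times. In SCI + SCS against SCI, DESeq2 called between 1 and 4 genes in each of the 9 pathway lists, where edgeR called 0. Under the block, SCI + SCS against Sham had 5 transcription factors called, against 10, and 3 induced targets, against 8. No pathway list was recounted without single libraries. Depth limits Tlr5 and Tlr9, which had at most 63 and 104 counts in a library.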
